A study of Homo sapiens with 12 samples.

Results

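The integrated stress response and the unfolded protein response were described in the DAOY transcriptomes through 35 genes, chosen by name and by a mean level of at least 1 TPM (a transcript level scaled for gene length and library size) over the 12 libraries. All 35 genes on the list passed this level, out of 17621 genes that did so and 63677 gene identifiers in the tables. DAOY is an established human medulloblastoma cell line. It was used as wild type (WT) and as lines in which CRISPR/Cas9 had disrupted NOTCH1 (NOTCH1KO) or NOTCH2 (NOTCH2KO). Every line grew on a coating of Jagged1, a ligand of Notch receptors, or of Fc alone as its control, and each coating was combined with the solvent DMSO or with DAPT, an inhibitor of the γ-secretase that releases active Notch, for 12 h. Each of these combinations gave 1 library, so that every genotype had 4 libraries from 4 different cultures and every culture had 3 libraries from 3 different genotypes. The sources used here do not give whether a knockout line was a single clone, and a genotype difference cannot be told apart from a difference between cell lines.

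The integrated stress response begins with kinases that phosphorylate the translation initiation factor eIF2 when amino acids run short, when haem is lacking, during viral infection or when unfolded protein collects in the endoplasmic reticulum (ER). Phosphorylated eIF2 lowers protein synthesis as a whole but favours translation of the transcription factor ATF4, which acts on genes for amino acid synthesis, amino acid import and redox balance. The unfolded protein response shares the eIF2 arm through the kinase PERK, and adds the factors XBP1 and ATF6, which act on genes for ER chaperones, disulphide isomerases and ER-associated degradation. ATF4 is controlled mainly at translation and XBP1 by splicing of its mRNA, so that gene levels of these factors do not give their activity. In the following, 21 members belong to the amino acid and eIF2 arm and 14 to the ER arm.

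The libraries held between 18.3 and 22.4 M reads, and mitochondrial transcripts took between 2.28% and 3.09% of TPM. The targeted genes were lower in their own lines, with NOTCH1 down from 3.19 ± 0.337 TPM to 0.565 ± 0.249 and NOTCH2 down from 80.7 ± 9.56 to 50.7 ± 7.95 (mean ± SD, n = 4). Of 5 Notch targets tested 2 fell in NOTCH1KO, HES4 (-1.02 on the log2 scale) and HES1 (-0.43), and none in NOTCH2KO. All 5 differences of NOTCH2KO were negative. HES4 was low, at 0.878 to 4.62 TPM in WT and at most 2.53 in NOTCH1KO. The differences are averaged over 4 cultures, of which 1 had Jagged1 without DAPT. In that culture HEY1 was at 56.6, 31.5 and 18.3 TPM in WT, NOTCH1KO and NOTCH2KO (1 library each). NOTCH3 was there at 16.2 TPM in the WT library and 0.237 in that of NOTCH2KO, with NOTCH1KO between them. Of 14 medulloblastoma and neural markers 9 had a mean of at least 1 TPM, whereas ATOH1, NEUROD1 and BARHL1 were at or near 0. The summed level of these markers was 91.0 to 123 TPM in WT, 83.8 to 104 in NOTCH1KO and 128 to 138 in NOTCH2KO. None of the blood and endothelial markers reached a mean of 1 TPM, and PTPRC and CD3E were at 0 in all 12 libraries. Fibroblast markers, led by the collagen genes COL1A1 and COL1A2, summed to 872 to 1381, 787 to 1471 and 850 to 1178 TPM in WT, NOTCH1KO and NOTCH2KO. Epithelial markers, nearly all from KRT18 and KRT8, summed to 779 to 1037, 587 to 760 and 685 to 809 TPM, while EPCAM and CDH1 were below 1 TPM in every library. Of the 9 medulloblastoma and neural markers tested, PTCH1 (-1.24), ZIC1 (-0.80) and OTX2 (-0.64) fell in NOTCH1KO, while in NOTCH2KO OTX2 fell (-0.61) and GLI2 (0.65) and EN2 (0.50) rose. Of the 4 epithelial markers tested, KRT14 (-2.25) and KRT18 (-0.51) fell in NOTCH1KO and KRT14 (-2.05) in NOTCH2KO. Of the 7 fibroblast markers tested, FAP (-0.99), COL3A1 (-1.44) and COL1A2 (-0.28) fell in NOTCH1KO, and in NOTCH2KO the same 3 fell (-2.61, -1.49 and -0.50) and THY1 rose (0.52). The part of these markers in the differences below was not tested. In bulk libraries of this kind, fewer cells that express a gene and less RNA per cell cannot be told apart.

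Sequence elements known from these pathways were looked up in RefSeq promoters (GRCh38.p14, 250 bases before to 50 after the start), which were found for 31 of the 35 members, with 44 promoter windows in all. The element bound by ATF4 with C/EBP partners was searched as TGATGNAA, the ER stress response element as CCAAT, 9 bases of any kind and CCACG, its second form as ATTGG, any base and CCACG, and the core shared by XBP1 and ATF6 as TGACGTGG, each on both strands. The ATF4 element was found in 5 of the 44 member windows (CHAC1, ASNS, SLC3A2, SLC7A1 and HERPUD1) and in 3.62% of 35116 promoters. The ER stress response element was found in 6 member windows (CALR, HSP90B1, HSPA5, PDIA6, XBP1 and CRELD2) and in 0.0769% of all promoters, its second form in 3 (HERPUD1, SDF2L1 and HYOU1) and in 0.0541%, and TGACGTGG in 1 (HYOU1) and in 0.729%. A match here is a match of letters, and neither binding nor its absence follows from it.

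The stretches around the matches are shown for 9 of the members that hold one. For each element these are up to 3 members with the largest absolute log2 difference of NOTCH1KO from WT. The stretches run 5′ to 3′ on the strand of the gene, with the matched letters in capitals (on the opposite strand they read as the reverse complement). The first 3 carry the ATF4 element, with that of CHAC1 at 209 bases before the start, that of ASNS at 68 and that of SLC3A2 after the start.
CHAC1, GRCh38.p14 chr15:40953242-40953289, plus strand: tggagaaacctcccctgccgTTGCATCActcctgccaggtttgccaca
ASNS, GRCh38.p14 chr7:97872449-97872496, minus strand: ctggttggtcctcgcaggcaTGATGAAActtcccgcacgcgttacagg
SLC3A2, GRCh38.p14 chr11:62881719-62881748, plus strand: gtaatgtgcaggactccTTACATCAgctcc

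The next 3 carry the ER stress response element, which HSP90B1 holds on each strand, and the last 3 its second form. In HERPUD1 the second form lies downstream of an ATF4 element, and in HYOU1 the first of both copies overlaps the letters TGACGTGG by 5 bases.
CALR, GRCh38.p14 chr19:12938364-12938422, plus strand: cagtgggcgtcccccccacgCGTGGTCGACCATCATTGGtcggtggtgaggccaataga
HSP90B1, GRCh38.p14 chr12:103930196-103930359, plus strand: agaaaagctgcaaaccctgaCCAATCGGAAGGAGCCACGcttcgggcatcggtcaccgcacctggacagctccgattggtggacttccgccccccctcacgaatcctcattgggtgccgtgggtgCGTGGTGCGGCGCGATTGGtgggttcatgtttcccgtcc
XBP1, GRCh38.p14 chr22:28800583-28800641, minus strand: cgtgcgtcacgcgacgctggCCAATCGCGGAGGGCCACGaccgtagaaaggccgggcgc
HERPUD1, GRCh38.p14 chr16:56931946-56932055, plus strand: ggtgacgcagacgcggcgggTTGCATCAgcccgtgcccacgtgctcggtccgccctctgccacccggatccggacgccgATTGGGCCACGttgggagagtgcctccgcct
SDF2L1, GRCh38.p14 chr22:21642094-21642144, plus strand: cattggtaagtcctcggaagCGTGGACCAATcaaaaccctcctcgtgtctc
HYOU1, GRCh38.p14 chr11:119057254-119057413, minus strand: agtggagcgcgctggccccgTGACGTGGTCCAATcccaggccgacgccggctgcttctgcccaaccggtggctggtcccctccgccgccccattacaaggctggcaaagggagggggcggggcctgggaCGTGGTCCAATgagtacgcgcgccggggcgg

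The comparison of each knockout with WT asked which of these genes differed in cells without the receptor. In NOTCH1KO the amino acid and eIF2 arm was lower, with CHAC1, SESN2 and the serine synthesis gene PSAT1 at the largest differences, and 4 ER genes were higher, CALR, HSP90B1, PDIA4 and PDIA6. Of the 35 members 16 fell, beside 12.8% of all genes tested, and 4 rose, beside 10.7%, at an adjusted p under 0.05 (limma, Benjamini-Hochberg over all genes). In NOTCH2KO 11 members fell, beside 7.35% of all genes, and 9 rose, beside 12.0%. All the members that fell, in either knockout, belonged to the amino acid and eIF2 arm, and all those that rose belonged to the ER arm. The median log2 difference over the 21 genes of the first arm was -0.84 in NOTCH1KO and -0.45 in NOTCH2KO, and over the 14 genes of the ER arm 0.085 and 0.59, where the median over all genes tested was 0.0001 and 0.064. Both comparisons used the same WT libraries and are therefore not independent of each other.

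**Figure D1:**
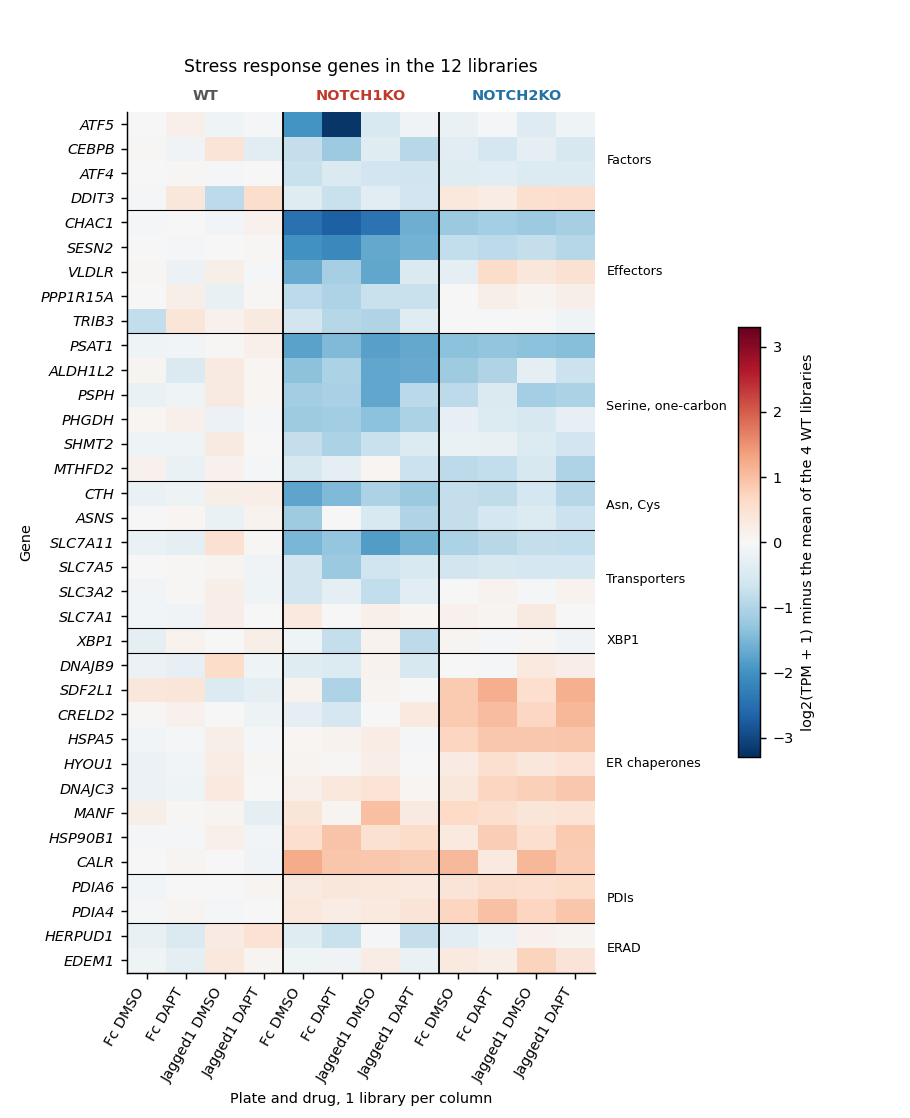
Level of the 35 genes in the 12 libraries, as log2(TPM + 1) minus the mean of the 4 WT libraries, with 1 column per library and the genes grouped by role. The first 21 rows are mostly below WT in NOTCH1KO, down to CHAC1 at a mean difference of -2.31, and the ER chaperone and isomerase rows are mostly above WT in NOTCH2KO.

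**Figure D2:**
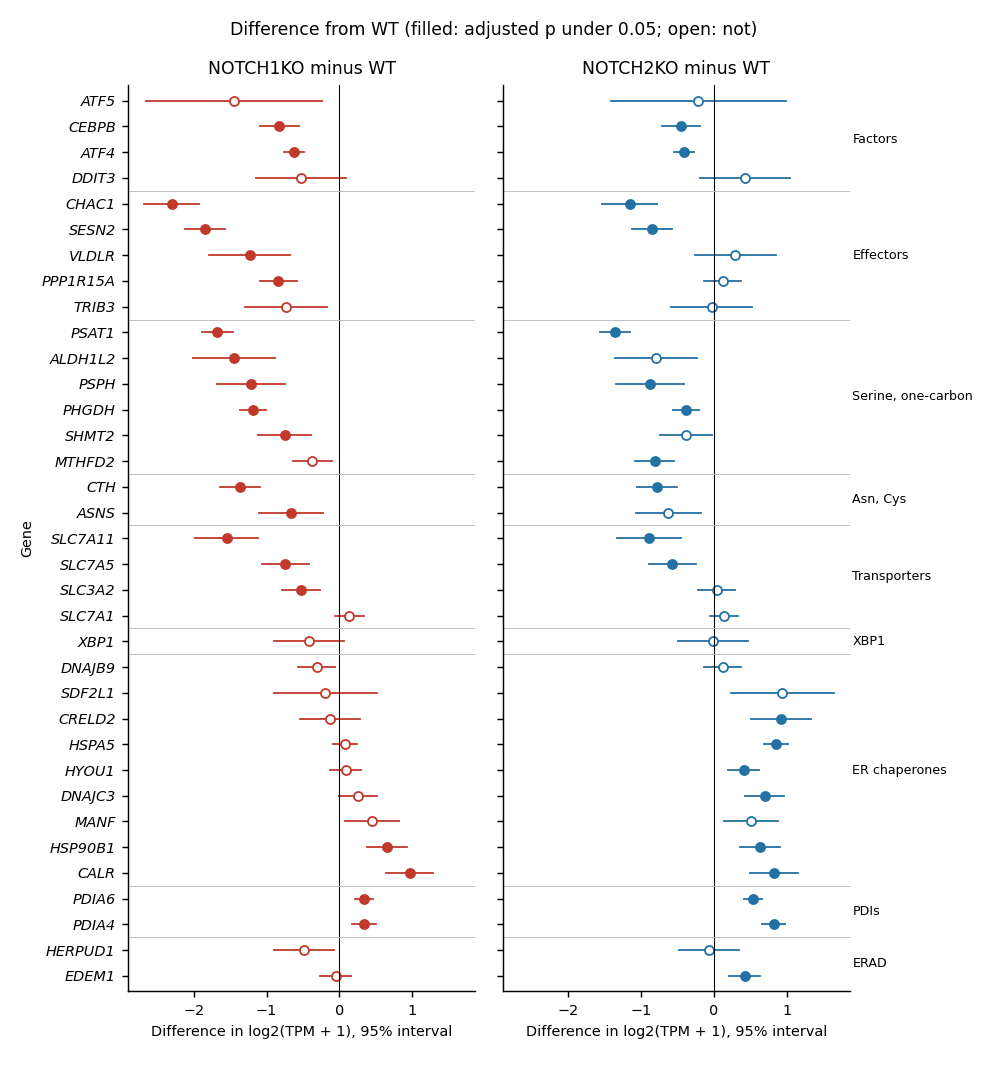
Difference in log2(TPM + 1) of NOTCH1KO (left) and NOTCH2KO (right) from WT for each gene, with its 95% interval from the limma fit, filled where the adjusted p was under 0.05. In NOTCH1KO 16 genes are filled below 0 and 4 above it, and in NOTCH2KO 11 below and 9 above.

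Among the transcription factors, ATF4 and CEBPB fell in both knockouts. ATF4 had a TPM of 329, 338, 315 and 327 in the WT libraries, given throughout for Fc plates (DMSO, then DAPT) and then for Jagged1 plates (DMSO, then DAPT). It had 196, 235, 212 and 208 in those of NOTCH1KO and 250.03, 256, 237 and 241 in those of NOTCH2KO. None of these 3 groups overlapped, with WT highest and NOTCH1KO lowest. The log2 difference from WT was -0.62 in NOTCH1KO (95% interval -0.76 to -0.48, adjusted p = 0.000428) and -0.41 in NOTCH2KO (-0.55 to -0.27, adjusted p = 0.00325). The pseudogenes ATF4P3 and ATF4P4 were listed at means of 74.3 and 30.1 TPM, and the sources used here do not give how reads shared with ATF4 were divided.

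CEBPB, a C/EBP family factor that pairs with ATF4, fell from 37.2 ± 8.91 TPM to 20.6 ± 4.99 in NOTCH1KO (-0.82, adjusted p = 0.00205) and to 26.5 ± 2.29 in NOTCH2KO (-0.45, adjusted p = 0.0282). The second of these calls was lost without any 1 of 7 libraries, all but WT on Jagged1 with DAPT and the NOTCH1KO libraries, where the difference lay between -0.50 and -0.35.

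ATF5, a relative of ATF4 that also responds to amino acid shortage, varied most between libraries, by 14.2-fold from the lowest to the highest. It had a TPM of 31.0, 35.1, 28.2 and 30.3 in the WT libraries, 7.13, 2.47, 21.8 and 28.6 in those of NOTCH1KO, and 26.4, 29.9, 22.7 and 28.2 in those of NOTCH2KO. In NOTCH1KO both libraries from Fc plates were thus far below WT and both from Jagged1 plates were near it. The genotype difference of -1.45 had a 95% interval from -2.65 to -0.24 and did not pass (adjusted p = 0.0799), though it did without the NOTCH1KO library on Jagged1 with DAPT, at -1.89. The Jagged1 response of ATF5, averaged over DMSO and DAPT, was higher in NOTCH1KO than in WT by 2.46 on the log2 scale (interval 1.29 to 3.62, adjusted p = 0.385).

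DDIT3, which encodes the pro-apoptotic factor CHOP, had 26.8, 36.4, 14.8 and 42.4 TPM in the WT libraries, 21.1, 16.5, 22.03 and 17.7 in those of NOTCH1KO and 35.9, 33.4, 41.1 and 42.1 in those of NOTCH2KO. The WT libraries alone spanned 2.85-fold and overlapped both knockouts, and neither difference from WT passed (-0.52, adjusted p = 0.196, and 0.42, adjusted p = 0.317). Without WT on Jagged1 with DMSO, the lowest of them, the difference was -0.87 in NOTCH1KO and passed, and 0.08 in NOTCH2KO. DDIT3 lies opposite MARS, the methionyl-tRNA synthetase gene at a mean of 265 TPM, and the sources used here do not give the strand setting of the counting. ATF5 (with NUP62, at a mean of 85.8 TPM), DNAJB9 (with PNPLA8, at 60.5), CRELD2, HSP90B1 and ALDH1L2 also overlap a gene on the opposite strand, so that their levels carry the same uncertainty. HERPUD1 overlaps a gene at 1.11 TPM on its own strand.

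**Figure D3:**
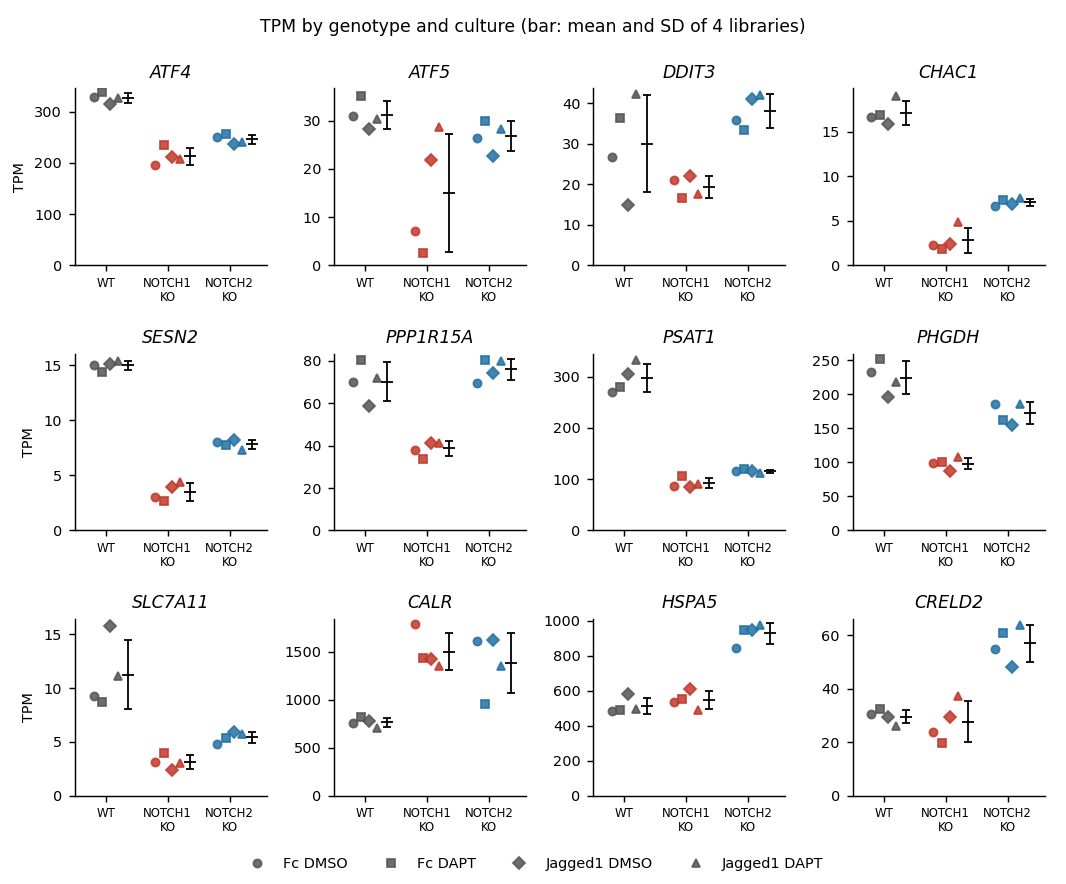
TPM of 12 of the genes in each library by genotype, with the symbol giving the culture and the bar the mean and SD of 4 libraries. SESN2 and PSAT1 show narrow groups well below WT in both knockouts, PPP1R15A is low in NOTCH1KO alone, and HSPA5 and CRELD2 are high in NOTCH2KO alone.

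Of the feedback genes and stress effectors, 4 of 5 fell in NOTCH1KO and 2 in NOTCH2KO. CHAC1, which degrades glutathione, had 16.6, 16.9, 15.8 and 19.0 TPM in the WT libraries, 2.25, 1.76, 2.35 and 4.89 in those of NOTCH1KO and 6.68, 7.32, 6.83 and 7.495 in those of NOTCH2KO. The mean was 6.07-fold lower than in WT in NOTCH1KO (log2 difference -2.31, interval -2.68 to -1.93, adjusted p = 9.33e-05) and 2.41-fold lower in NOTCH2KO (-1.16, -1.54 to -0.78, adjusted p = 0.00264). SESN2, a leucine sensor that restrains mTORC1, showed the same order of the groups with little spread.

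SESN2 had 15.0, 14.4, 15.1 and 15.4 TPM in the WT libraries, 3.01, 2.67, 3.97 and 4.38 in those of NOTCH1KO and 8.05, 7.75, 8.23 and 7.30 in those of NOTCH2KO. It fell by 1.84 on the log2 scale in NOTCH1KO (adjusted p = 6.14e-05) and by 0.86 in NOTCH2KO (adjusted p = 0.00245). For CHAC1 and for SESN2 no NOTCH1KO library reached the lowest NOTCH2KO library, and no NOTCH2KO library reached the lowest WT library.

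PPP1R15A, which encodes the GADD34 subunit that guides a phosphatase to eIF2 and so ends the response, differed from WT in 1 knockout. It had 69.8, 80.4, 58.6 and 72.1 TPM in the WT libraries, 38.1, 33.9, 41.4 and 41.2 in those of NOTCH1KO and 69.6, 80.4, 74.1 and 79.8 in those of NOTCH2KO. Thus it fell in NOTCH1KO (-0.84, adjusted p = 0.00162), while the difference of NOTCH2KO from WT was 0.12 (interval -0.14 to 0.37, adjusted p = 0.505). VLDLR, a lipoprotein receptor gene that responds to ATF4, had 19.7, 16.7, 22.02 and 18.7 TPM in the WT libraries, 5.41, 8.52, 5.16 and 13.5 in those of NOTCH1KO and 15.2, 29.9, 24.9 and 27.7 in those of NOTCH2KO. Its fall in NOTCH1KO (-1.23, adjusted p = 0.00904) came with lower levels of its neighbours on chromosome 9, described below.

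TRIB3, a pseudokinase that acts back on ATF4, had 8.65, 21.4, 17.7 and 20.02 TPM in the WT libraries and 10.2, 7.92, 7.57 and 11.8 in those of NOTCH1KO. The WT library on Fc with DMSO stood apart at a level within the NOTCH1KO range. With it, the difference did not pass (-0.74, adjusted p = 0.061), and without it the difference was -1.04 and passed. In NOTCH2KO the values of TRIB3 lay between 14.4 and 16.4 TPM (-0.03, interval -0.59 to 0.53).

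Serine synthesis and one-carbon enzymes were lower in both knockouts, with 5 of 6 called in NOTCH1KO and 4 of 6 in NOTCH2KO, and all 6 had a negative difference in each. PHGDH, PSAT1 and PSPH carry out the 3 steps from a glycolytic intermediate to serine, and all of them fell in both lines. PSAT1 had 270.4, 279.6, 306 and 332 TPM in the WT libraries, 86.5, 107, 84.9 and 90.7 in those of NOTCH1KO and 115, 119, 115 and 111 in those of NOTCH2KO. The log2 difference was -1.68 (adjusted p = 2.70e-05) and -1.36 (adjusted p = 8.72e-05). Pseudogenes of PSAT1 were listed at up to 4.51 TPM, well below the gene itself.

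PHGDH, the first enzyme of this path, had 233, 251, 196 and 218 TPM in the WT libraries, 98.4, 99.8, 86.8 and 108 in those of NOTCH1KO and 186, 162, 155 and 185 in those of NOTCH2KO. Its difference of -1.18 in NOTCH1KO (adjusted p = 6.95e-05) was larger than that of -0.38 in NOTCH2KO (adjusted p = 0.0124). The lines themselves differed by 0.80 (NOTCH2KO minus NOTCH1KO, adjusted p = 0.000251). PSPH, the last enzyme, fell from 100.4 ± 16.9 TPM to 43.3 ± 9.94 (-1.21, adjusted p = 0.00463) and 54.3 ± 11.4 (-0.88, adjusted p = 0.0189). The call of PSPH in NOTCH2KO was lost without WT on Jagged1 with DAPT or without either NOTCH2KO library from Jagged1 plates, at -0.89 to -0.76.

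Of the mitochondrial folate enzymes, MTHFD2 was at 128 ± 15.0 TPM in WT, 101 ± 25.2 in NOTCH1KO (-0.37, adjusted p = 0.0509) and 73.0 ± 10.7 in NOTCH2KO (-0.81, adjusted p = 0.00273). The first of these differences passed in 7 of 22 other settings, at -0.45 to -0.29 over all 22. SHMT2, which makes glycine and a one-carbon unit from serine, was at 269.7 ± 40.8, 160.1 ± 28.1 (-0.75, adjusted p = 0.0111) and 206 ± 27.0 TPM (-0.38, adjusted p = 0.127). ALDH1L2 had low levels, 7.95 ± 1.88 TPM in WT, 2.27 ± 0.722 in NOTCH1KO (-1.45, adjusted p = 0.00494) and 4.21 ± 1.42 in NOTCH2KO (-0.79, adjusted p = 0.0561). The last of these differences passed in 10 of 21 other settings. By mean level, MTHFD2 was thus lowest in NOTCH2KO, and SHMT2 and ALDH1L2 were lowest in NOTCH1KO.

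Among the remaining genes of amino acid synthesis, CTH, the transsulphuration enzyme that yields cysteine, fell in both knockouts. It had 20.9, 21.6, 28.3 and 28.6 TPM in the WT libraries, 6.68, 8.38, 11.35 and 9.96 in those of NOTCH1KO (-1.36, adjusted p = 0.000253) and 13.7, 13.4, 16.1 and 12.3 in those of NOTCH2KO (-0.79, adjusted p = 0.00368). The groups did not overlap. ASNS, the asparagine synthetase gene whose promoter carries the ATF4 element above, was less settled.

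ASNS had 146, 152, 124 and 156 TPM in the WT libraries and 63.3, 144, 102 and 71.4 in those of NOTCH1KO, where the library on Fc with DAPT lay inside the WT range. The call (-0.67, adjusted p = 0.0398) was lost without any 1 of 9 libraries, at differences between -0.76 and -0.52. It held without WT on Jagged1 with DMSO and without either knockout library from Fc with DAPT. In NOTCH2KO the level was 93.1 ± 9.96 TPM and did not overlap WT (-0.63, adjusted p = 0.0551). The call was gained in 7 of 22 other settings, among them that without the NOTCH1KO library on Fc with DAPT.

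Of the 4 amino acid transporters, SLC7A11 and SLC7A5 fell in both knockouts. SLC7A11, the cystine importer, had 9.25, 8.69, 15.8 and 11.2 TPM in the WT libraries, 3.16, 3.92, 2.34 and 3.03 in those of NOTCH1KO (-1.55, adjusted p = 0.00114) and 4.77, 5.34, 5.89 and 5.76 in those of NOTCH2KO (-0.89, adjusted p = 0.0143). SLC7A5, the large neutral amino acid carrier, was at 86.3 ± 5.37 in WT, 51.9 ± 10.7 in NOTCH1KO (-0.75, adjusted p = 0.00746) and 57.5 ± 1.25 in NOTCH2KO (-0.57, adjusted p = 0.0239). The NOTCH2KO call of SLC7A5 was lost without any 1 of 6 libraries, all WT libraries but Jagged1 with DAPT and all NOTCH2KO libraries but Fc with DAPT, at -0.59 to -0.49.

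SLC3A2 encodes the heavy chain that both of these carriers need at the cell surface. It was at 218 ± 23.3 TPM in WT, 151 ± 22.5 in NOTCH1KO (-0.53, adjusted p = 0.0119) and 223 ± 14.6 in NOTCH2KO (0.04, interval -0.22 to 0.29). SLC7A1, an importer of arginine and lysine, was at 49.4 ± 5.83, 54.3 ± 5.16 and 54.3 ± 4.62 TPM, with intervals of the difference from WT of -0.06 to 0.33 in each knockout. It was the only member of the first arm above WT in NOTCH1KO, at 0.14.

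In the ER arm the largest genes by level were CALR, HSP90B1 and HSPA5, at means over all libraries of 1218, 1088 and 662 TPM. CALR, the lectin chaperone calreticulin, had 757, 817, 776 and 709 TPM in the WT libraries, 1791, 1434, 1428 and 1356 in those of NOTCH1KO and 1612, 952, 1624 and 1355 in those of NOTCH2KO. All knockout libraries were above WT (0.97, adjusted p = 0.00258, and 0.83, adjusted p = 0.00601). HSP90B1, which encodes the ER form of HSP90 (GRP94), rose from 788 ± 68.5 to 1242 ± 179 TPM (0.65, adjusted p = 0.00691) and 1233 ± 208 (0.63, adjusted p = 0.00879).

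HSPA5 encodes BiP, the main Hsp70 chaperone of the ER and the repressor of its stress sensors. It had 486, 491, 583 and 497 TPM in the WT libraries, 533, 551, 608 and 487 in those of NOTCH1KO and 843, 949, 944 and 973 in those of NOTCH2KO. NOTCH1KO overlapped WT (0.08, interval -0.08 to 0.25), and every NOTCH2KO library was above every other library (0.85, interval 0.69 to 1.016, adjusted p = 0.000246). HYOU1, a large chaperone that acts as exchange factor of BiP, was at 138 ± 19.3 TPM in WT, 146 ± 9.83 in NOTCH1KO (0.09, adjusted p = 0.536) and 183 ± 13.97 in NOTCH2KO (0.41, adjusted p = 0.0178). The last call was lost without WT on Fc with DMSO, WT on Fc with DAPT, or either NOTCH2KO library with DAPT, at 0.35 to 0.38.

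Of the BiP co-chaperones, DNAJC3, which also inhibits PERK, rose in NOTCH2KO (41.0 ± 6.04 against 24.97 ± 4.43 TPM, 0.69, adjusted p = 0.00504), and was at 29.9 ± 3.72 in NOTCH1KO (0.26, adjusted p = 0.138). DNAJB9, which acts on the sensor IRE1, was at 47.7 ± 15.2, 37.6 ± 8.63 and 50.6 ± 6.29 TPM, with differences of -0.31 (adjusted p = 0.0739) and 0.12 (adjusted p = 0.493). SDF2L1, a cofactor of the J-domain proteins, had 23.8, 24.5, 12.97 and 14.3 TPM in the WT libraries, 19.9, 8.46, 19.4 and 18.5 in those of NOTCH1KO and 33.6, 42.6, 27.3 and 41.9 in those of NOTCH2KO. Although NOTCH2KO did not overlap WT, the difference of SDF2L1 missed the threshold (0.94, adjusted p = 0.067). It passed in 5 of 22 other settings, among them those without WT or NOTCH1KO on Fc with DAPT.

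CRELD2, a secreted ER stress protein, had 30.4, 32.3, 29.2 and 26.2 TPM in the WT libraries, 23.7, 19.7, 29.3 and 37.4 in those of NOTCH1KO and 54.8, 60.9, 48.2 and 63.9 in those of NOTCH2KO. It rose in NOTCH2KO (0.92, adjusted p = 0.00982) and in NOTCH1KO lay on both sides of WT (-0.13, interval -0.54 to 0.28). MANF, another secreted ER stress protein, was at 84.6 ± 12.7, 118 ± 34.6 and 120.1 ± 9.84 TPM, and neither difference passed (0.45, adjusted p = 0.0773, and 0.51, adjusted p = 0.0587). They passed in 2 and 6 of 22 other settings. The isomerases PDIA4 and PDIA6, which form disulphide bonds in new proteins, rose in both lines. PDIA4 went from 336 ± 15.1 TPM to 425 ± 21.3 (0.34, adjusted p = 0.0106) and 595 ± 55.7 (0.82, adjusted p = 0.000247), and PDIA6 from 424 ± 21.7 to 534 ± 13.1 (0.33, adjusted p = 0.00375) and 617 ± 35.9 (0.54, adjusted p = 0.000546).

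Of the ER-associated degradation genes, EDEM1, which directs misfolded glycoproteins to degradation, was at 14.5 ± 3.04 TPM in WT, 13.8 ± 2.13 in NOTCH1KO (-0.05) and 19.6 ± 3.28 in NOTCH2KO (0.42, adjusted p = 0.0156). The call was lost without WT on Fc with DMSO or without NOTCH2KO on Fc with DMSO or on Jagged1 with DAPT, at 0.41 to 0.42. HERPUD1, a scaffold of the degradation complex whose promoter holds elements of both arms, was at 83.9 ± 25.7, 58.8 ± 14.9 (-0.49, adjusted p = 0.0848) and 77.6 ± 12.0 TPM (-0.07, adjusted p = 0.817). XBP1 itself was at 85.9 ± 12.8, 66.2 ± 22.4 (-0.42, adjusted p = 0.184) and 84.4 ± 6.11 TPM (-0.02, adjusted p = 0.969). In NOTCH1KO the XBP1 values were 77.6 and 92.2 TPM with DMSO and 48.7 and 46.4 with DAPT.

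Calls held in every other setting run for 16 of the 20 members called in NOTCH1KO and for 15 of the 20 called in NOTCH2KO, which was 22 settings, or 21 for ALDH1L2, whose mean level was below 5 TPM. In NOTCH1KO the others were ASNS, SLC3A2, VLDLR and PDIA4. For SLC3A2 and PDIA4 the call was lost where the spread was estimated from WT and NOTCH1KO alone. The ratio of coverage to FPKM, which should be fixed within a gene if its transcripts are used alike, moved by over 1.5-fold between libraries for 9 members, most for TRIB3 and VLDLR (2.12-fold each), HERPUD1 (1.92-fold) and PSPH (1.90-fold). On the coverage scale 16 members fell and 5 rose in NOTCH1KO, and 13 fell and 10 rose in NOTCH2KO. Of all genes 15.3% fell and 13.4% rose on this scale in NOTCH1KO, and 8.98% fell and 14.9% rose in NOTCH2KO.

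Neighbours within 5 Mb of a member were lower as a group in NOTCH1KO at several loci, and their part in the differences was not tested. NOTCH1, the gene disrupted in this line, lies on chromosome 9 itself. Around PSAT1, on chromosome 9, the median difference of 11 protein-coding genes was -0.63 in NOTCH1KO, against -1.68 for PSAT1 itself, and no neighbour was lower. Around VLDLR, also on chromosome 9, it was -0.47 over 23 genes, against -1.23. HSPA5 lies on the same chromosome among 93 genes with a median of -0.88, and 98.9% of these were lower than its own 0.08. Around ASNS on chromosome 7 the median was -0.40 over 83 genes, and around SLC3A2 on chromosome 11 it was -0.42 over 157 genes, of which 36.3% were lower than SLC3A2. PHGDH lies on chromosome 1, as does NOTCH2, the gene disrupted in the other line. In NOTCH2KO the 21 neighbours of PHGDH had a median of 0.30, against -0.38 for PHGDH itself, and 4.76% of them were lower than PHGDH. An effect of the edited site on PHGDH was not tested. It cannot be told apart here from an effect of losing the receptor.

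When the median of the neighbours was taken off each gene, 14 members fell and 5 rose in NOTCH1KO. Of all 17621 genes 1706 fell and 1551 rose in this fit, against 2253 and 1884 without this step. The differences of VLDLR (-0.81), ASNS (-0.31) and SLC3A2 (-0.14) then no longer passed, that of PSAT1 was -1.04 and still passed, and those of MTHFD2 (-0.41) and HSPA5 (0.98) passed where they had not before. The medians around the members ran from -0.88 around HSPA5 to 0.32 around SLC7A1 in NOTCH1KO, and from -0.26 around HSPA5 to 0.34 around CRELD2 in NOTCH2KO. CHAC1, SESN2, SLC7A11, PHGDH and CTH, all with large falls in NOTCH1KO, had neighbours at medians of 0.16, -0.17, 0.02, 0.19 and 0.24.

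**Figure D4:**
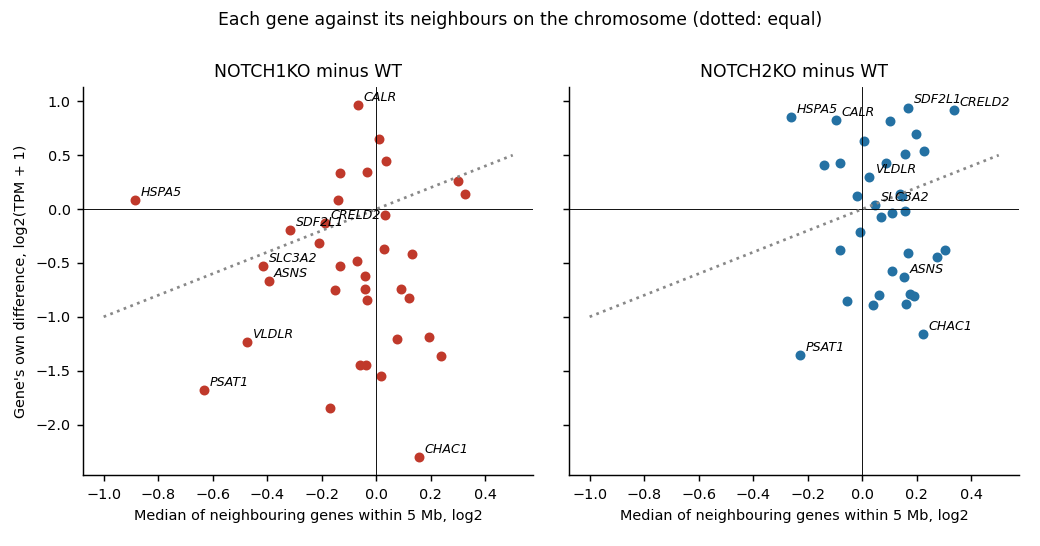
Each gene's own difference from WT in log2(TPM + 1) against the median difference of protein-coding genes within 5 Mb, for NOTCH1KO (left) and NOTCH2KO (right), with a dotted line where both are equal. HSPA5 in NOTCH1KO sits at 0.08 above neighbours at -0.88, and CHAC1 at -2.31 below neighbours at 0.16.

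The direct comparison of the knockouts asked whether the lines differed from each other. Of the 35 members 21 were higher in NOTCH2KO than in NOTCH1KO, beside 19.8% of all genes, and 1 was lower, beside 11.9%, with a median difference of 0.44 against 0.07 over all genes. The first arm contributed 12 of the higher genes and the ER arm 9. Among the members called, the largest differences were those of VLDLR (1.53, adjusted p = 0.00236), CHAC1 (1.15, adjusted p = 0.00146), SDF2L1 (1.14, adjusted p = 0.0237), CRELD2 (1.05, adjusted p = 0.00314), SESN2 (0.99, adjusted p = 0.000663) and PPP1R15A (0.96, adjusted p = 0.00055). ATF5, at 1.24, did not pass (adjusted p = 0.109). MTHFD2 was the lower gene (-0.44, adjusted p = 0.0215). Its call was lost without any 1 of 5 libraries, NOTCH1KO on Fc with DAPT or on Jagged1 with DMSO and every NOTCH2KO library but that on Fc with DAPT, at -0.44 to -0.36.

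The count of 21 was 11 without the NOTCH2KO library on Fc with DAPT and 13 without that on Jagged1 with DAPT. In these 2 fits 2732 and 2756 genes in all were higher in NOTCH2KO, against 3489 with every library. It was also 13 when libraries were centred on their medians, which moved the median of all genes by 0.152, and 13 when the neighbours' median was taken off. Under centring 2403 genes in all were higher and 3600 lower in NOTCH2KO than in NOTCH1KO, against 3489 and 2089 without it. With the neighbours' median taken off, 2530 genes were higher and 2396 lower. The calls of CHAC1, SESN2, PHGDH, VLDLR, CTH, PPP1R15A, CRELD2, PDIA4 and EDEM1 held in all 22 settings. With the neighbours' median taken off, the differences of ATF4, PSAT1 and PDIA6 turned to -0.04, -0.13 and -0.18. That of HSPA5 was then 0.12 and no longer passed, against 0.77 without this step.

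The comparisons of plate and drug asked which genes responded to the ligand or to the block of Notch release, and gave few calls. HES1, a direct Notch target used as a check of the cultures, fell with DAPT on Jagged1 plates from a mean of 68.0 to 30.8 TPM (-1.11, adjusted p = 0.0478, n = 3 genotypes). This call was lost without any 1 of 11 libraries, all but NOTCH2KO on Jagged1 with DMSO, and in 6 of 10 other settings, at differences from -1.20 to -0.98 (highest adjusted p = 0.558). All 5 Notch targets tested were lower with DAPT on Jagged1 (-2.23 to -0.53) and higher on Jagged1 in DMSO (0.16 to 1.59, none called). The size differed by genotype (1 library each), which the means pool. HEY1 on Jagged1 against Fc in DMSO was at 56.6 against 11.5 TPM for WT. For NOTCH1KO this was 31.5 against 7.85, and for NOTCH2KO 18.3 against 11.04. NOTCH3 was at 16.2 against 1.72 TPM for WT, rose for NOTCH1KO too, and was at 0.237 against 0.246 for NOTCH2KO. None of the 35 members passed for Jagged1 against Fc in DMSO, where 0.0114% of all genes did, nor for DAPT against DMSO on Jagged1 (0.0284%), for DAPT against DMSO on Fc (0.0341%) or for Jagged1 against Fc in DAPT (0.00568%). At an unadjusted p under 0.05 in limma there were 7, 5, 0 and 0 members of 35, beside 10.8%, 11.0%, 6.14% and 4.74% of all genes.

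The 7 members for Jagged1 in DMSO included 4 genes of the ER arm, all higher on Jagged1. DNAJB9 was higher by 0.79 in WT, 0.53 in NOTCH1KO and 0.33 in NOTCH2KO (mean 0.55, unadjusted p = 0.00239, adjusted p = 0.268 in limma). EDEM1 was higher by 0.49, 0.36 and 0.41 (mean 0.42, adjusted p = 0.279), DNAJC3 by 0.52, 0.29 and 0.41 (mean 0.40, adjusted p = 0.382), and HSPA5 by 0.26, 0.19 and 0.16 (mean 0.21, adjusted p = 0.443). The direction was the same in all 3 genotypes for each of these genes, and the differences did not pass the adjustment over all genes. As the genes were picked by the unadjusted p of these same 3 differences, the shared direction adds no support. Of the 9 ER chaperones and co-chaperones 2 had a negative difference in this comparison, down to -0.38. With DAPT on Jagged1 plates DNAJB9 was lower by 0.50 on average, at -0.74, -0.65 and -0.11, and EDEM1 by 0.34, at -0.27, -0.44 and -0.30.

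The other members at this level belonged to the first arm. CTH was higher on Jagged1 in DMSO by 0.42, 0.69 and 0.22 (mean 0.44, adjusted p = 0.365). PHGDH was lower by 0.25, 0.18 and 0.26 in log2 units, at a mean of -0.23, and with DAPT on Jagged1 was higher by a mean of 0.24 (adjusted p = 0.387). CEBPB was lower with DAPT on Jagged1, at -0.78, -0.50 and -0.20 (mean -0.50, adjusted p = 0.247), as was MTHFD2, at -0.21, -0.80 and -0.49 (mean -0.50, adjusted p = 0.255). For Jagged1 in DMSO, MTHFD2 was at -0.01, 0.62 and 0.33 (mean 0.31, adjusted p = 0.457), not of 1 sign in the 3 genotypes. The comparisons of Jagged1 in DMSO and of DAPT on Jagged1 share the libraries on Jagged1 with DMSO, so their opposite signs are not independent of each other.

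**Figure D5:**
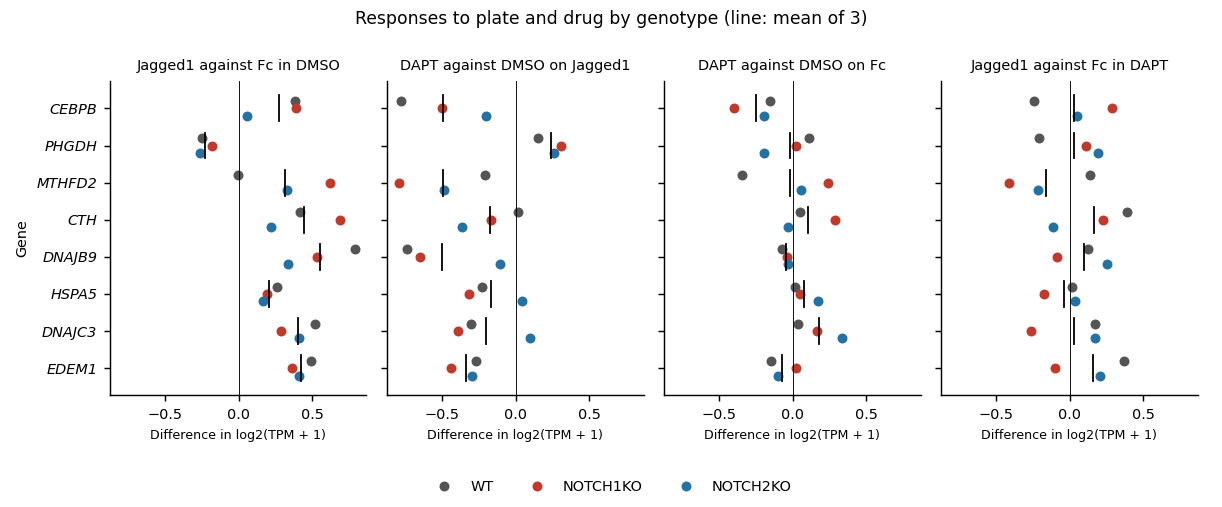
Difference in log2(TPM + 1) for 8 genes with an unadjusted p under 0.05 in the first or second comparison, by comparison of plate or drug, with 1 point per genotype and a line at the mean. DNAJB9, DNAJC3, EDEM1 and HSPA5 lie to the right of 0 in all 3 genotypes for Jagged1 against Fc in DMSO, none of them past the adjusted threshold.

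Whether a knockout changed the response to plate or drug was tested with an interaction term, and none of the 35 members passed. The Jagged1 response was averaged over DMSO and DAPT, and the DAPT response over Fc and Jagged1 plates. The response to Jagged1 without DAPT was thus not tested by itself. For the Jagged1 response 0.0341% of all genes passed for NOTCH1KO and 0.0397% for NOTCH2KO, and for the DAPT response 0.0114% and 0.0% did. At an unadjusted p under 0.05 in limma there were 6, 1, 3 and 3 members of 35, beside 11.7%, 3.87%, 3.36% and 3.36% of all genes. The largest by p was XBP1, whose DAPT response was lower in NOTCH1KO than in WT by 1.13 in log2 (value -1.13, interval -1.58 to -0.69, unadjusted p = 0.000624, adjusted p = 0.733). For NOTCH2KO the same value of XBP1 was -0.48 (interval -0.93 to -0.04) and was not called either. ATF5 was called for the Jagged1 response of NOTCH1KO, at 3.16 (adjusted p = 0.0273), only when the NOTCH1KO library on Fc with DMSO was left out, which leaves 1 NOTCH1KO library on Fc.

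Other genes of these pathways were counted from lists that did not include the members. These lists too were chosen with earlier results of these data known, so their counts are no independent support. As given above, 12.8% of all genes fell and 10.7% rose in NOTCH1KO, and 7.35% fell and 12.0% rose in NOTCH2KO. Of 29 further ATF4 and CHOP targets 11 fell and 1 rose in NOTCH1KO, and 8 fell and 2 rose in NOTCH2KO. DDIT4, a stress-induced mTORC1 inhibitor, fell from 60.6 ± 14.7 TPM to 9.13 ± 4.35 in NOTCH1KO (-2.68, adjusted p = 0.000167) and 18.0 ± 1.68 in NOTCH2KO (-1.67, adjusted p = 0.00178). NUPR1, a stress-induced chromatin protein, fell from 48.6 ± 6.60 to 8.65 ± 4.40 (-2.45) and 16.4 ± 1.70 (-1.51). The median difference of this list was -0.23 and -0.21, so that most of its genes moved far less than these.

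Of 20 cytosolic aminoacyl-tRNA synthetases, many of them ATF4 targets, 6 fell and 2 rose in NOTCH1KO, and 7 fell and 2 rose in NOTCH2KO. The median difference was 0.07 in NOTCH1KO, where 12 of the 20 were positive, and -0.28 in NOTCH2KO. The genes that rose were HARS (0.39) and QARS (0.34) in NOTCH1KO, and FARSB (0.31) and SARS (0.32) in NOTCH2KO. WARS was at 468 ± 111 TPM in WT, 226 ± 46.0 in NOTCH1KO (-1.04, adjusted p = 0.00756) and 289 ± 73.7 in NOTCH2KO (-0.70, adjusted p = 0.0389). GARS was at 1197 ± 57.1, 737 ± 79.8 (-0.70) and 844 ± 15.9 TPM (-0.50), and its groups did not overlap. Of 16 sensors and eIF2 factors 2 rose and 2 fell in each knockout, or 12.5% each way, near the shares of all genes in NOTCH1KO, with EIF2AK4, the amino acid sensing kinase GCN2, higher in both (0.38 and 0.64).

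Of 32 further targets of XBP1 and ATF6, 8 rose and 4 fell in NOTCH1KO and 10 rose and 1 fell in NOTCH2KO. ERO1LB, an oxidase that recharges the disulphide isomerases, rose from 2.50 ± 1.36 TPM to 5.68 ± 2.13 (0.95, adjusted p = 0.00392) and 7.68 ± 1.33 (1.37, adjusted p = 0.00101). SEC11C, a signal peptidase subunit, rose from 61.8 ± 12.0 to 101 ± 10.6 (0.71) and 111 ± 21.8 (0.84). SEC61B, a translocon subunit, and ERP44, a retention factor of the secretory path, fell in NOTCH1KO by 1.24 and 0.94 on the log2 scale. Both lie on chromosome 9 with HSPA5, PSAT1 and NOTCH1.

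Of 12 cytosolic heat shock genes 2 rose and 3 fell in NOTCH1KO, among them the co-chaperone gene BAG3 (-0.66), and 3 rose and 1 fell in NOTCH2KO, among them HSPB1 (1.21). Of 9 mitochondrial chaperones and proteases 4 rose in NOTCH1KO and none fell, with HSPE1 at 0.64 and 8 of 9 differences positive, and 1 rose and 1 fell in NOTCH2KO. Of 11 NRF2 targets, which mark oxidative stress and share SLC7A11 as a target with ATF4, 3 fell in NOTCH1KO, led by the haem oxygenase gene HMOX1 (52.1 ± 7.42 to 16.3 ± 2.12 TPM, -1.62, adjusted p = 9.95e-05), and 2 fell and 1 rose in NOTCH2KO. No gene of these 7 lists was called in the comparisons of plate or drug.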

How the data were processed

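The deposited tables, 1 per library, gave TPM, FPKM and coverage per gene on GRCh37. TPM and FPKM had been scaled by the authors for gene length and library size, and coverage, as deposited, was the mean depth per base. The labels named bcl2fastq 2.17 and CASAVA; for the aligner, quantifier, annotation and strand setting nothing is given in the sources used here. Reads of 51 bases numbered 18.3 to 22.4 M per library, derived from coverage over FPKM, and no pair of libraries was identical. TPM of an identifier listed several times was summed.

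Values were analysed as log2(TPM + 1), which understates changes of low genes, in R 4.3.3 with limma 3.58.1 with its trend option, over the 17621 genes whose TPM averaged 1 or more. Genotype and culture entered as additive terms, which left 6 residual degrees of freedom, against 4 with interaction terms. With 1 library per combination, the error measured departure from additivity, not variation between cultures. P-values were adjusted by Benjamini-Hochberg over all genes, and the scripts were tested on simulated data. Named genes were all members, the targeted genes, Notch targets as culture check, and genes of the further lists. The plan was up to 3 called genes per further list, and more were named for the cell type markers and the synthetases. Neighbours were protein-coding genes (types from GENCODE v29) with a mean TPM of at least 5 within 5 Mb. The members, lists and motifs were chosen with earlier results of these data known. The other settings were a pseudocount of 0.1, no filter, a mean TPM of at least 5, FPKM, coverage, median-centred libraries, library weights, only the genotypes compared, 1 term alone, the neighbours' median taken off, and each library left out.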

Additional observations from a re-analysis of the deposited data

Results flagged for a closer look

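Of 105 groups of 4 libraries examined (35 genes in 3 genotypes), 5 held a library whose gap to the nearest other library took most of the range, where chance flags about 1 in 20. DNAJB9 stood apart in WT on Jagged1 with DMSO, at 70.3 TPM against 38.3 to 41.7 in the other WT libraries, and in NOTCH1KO in the same culture, at 50.4 TPM against 31.6 to 34.6. HSPA5 stood apart in the same WT library, at 583 TPM against 486 to 497. SDF2L1 was low in NOTCH1KO on Fc with DAPT, at 8.46 TPM against 18.5 to 19.9. SLC7A5 was at 59.4 TPM in NOTCH2KO on Fc with DAPT, against 56.7 to 57.1, a narrow range in which the gap itself was small.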

How the results depend on the processing

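Of 2307 single differences recomputed over 22 settings, 2120 kept their side of the threshold, of which 2068 also kept their direction and 52 values that were not called changed sign. Of the others 126 lost and 58 gained a call, and 3 called values changed sign. The 3 were those of NOTCH2KO against NOTCH1KO for ATF4 (-0.042), PSAT1 (-0.13) and PDIA6 (-0.18) with the neighbours' median taken off, which by construction removes a difference shared with the neighbours. The members higher in NOTCH2KO than in NOTCH1KO numbered 13 with median-centred libraries and 13 with the neighbours' median taken off, against 21, and 11 to 21 with 1 library left out. Of all genes 2403, 2530 and 3489 were higher with centring, with the neighbours' median taken off and in the main fit. The 1 member lower there became 0 with the genotype term alone and 0 to 1 with 1 library left out; the cause was not tested. With 1 library left out, 15 to 18 members fell and 4 to 5 rose in NOTCH1KO, and 8 to 13 fell and 7 to 11 rose in NOTCH2KO. Of all 17621 genes 1509 to 2171 fell and 1116 to 1848 rose in NOTCH1KO in these fits. In NOTCH2KO 809 to 1558 of all genes fell and 1216 to 2481 rose. Over the other settings the member counts were, in the same order, 14 to 18, 3 to 5, 11 to 13 and 8 to 11. Those of all genes were 1200 to 2689, 812 to 2459, 1094 to 1929 and 1349 to 3083, where the filter settings also changed the number tested. For the Jagged1 response of NOTCH1KO 0 to 1 members were called with 1 library left out. Counts for plate, drug and the other interaction contrasts stayed at 0 in every setting run. The model alternatives were not run for the interaction terms. The labels give no replicate numbers, so no replicate block was added, and the culture term already matches libraries of the same plate and drug. Genes near 1 TPM rest on few reads, since a single read on 1 kb of transcript amounted to 0.0947 to 0.117 TPM.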
